A study of Oryctolagus cuniculus with 16 samples.

Results

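The genes described here are the machinery that copies DNA and divides the cell. They are a list of 49 cell cycle genes matched to the table by symbol, of which 17 act at the G1/S transition and in S phase and 32 act in G2 and mitosis. Of the 49, 37 had a row among the 13001 named genes of the count table, 12 in S phase and 25 in mitosis. A filter on low counts left 36 of them, 12 S phase and 24 mitotic genes, among 10942 genes tested. CENPA, the histone variant that marks centromeres, had a row but was not tested, with 0 to 35 counts in a library and the highest count in PLATE 1. The other 12 (CCNE1, E2F1, CDC45, MCM6, TYMS, CCNA2, CCNB1, MKI67, CDC20, CENPF, SPC25 and BIRC5) had no row and were not analysed here.

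Vaginal tissue of juvenile female New Zealand White rabbits, 17 to 19 weeks of age, was sequenced as poly(A) RNA in 16 libraries. The groups were native vagina of unoperated animals (control, n = 6), sham-operated vagina (sham, n = 3), vagina holding an acellular graft (acellular, n = 3) and vagina holding a PLATE graft, which the labels describe as carrying tissue particles (PLATE, n = 4). Both graft groups were sampled 10 mm away from the graft, while the sampling position of sham and control tissue and the time after surgery are not given in the sources used here. Libraries are called by group and animal number (PLATE 1, control 24). Each library has its own sample label, and the p-values measure the spread between these libraries.

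A dividing cell first licenses its replication origins by loading the MCM helicase, then fires them and copies its DNA in S phase, and then uses CDK1 with its cyclins, the Aurora and Polo kinases, the kinetochore and the spindle motors to separate the chromosomes. Transcription of these genes comes in a pair of waves, an earlier one under E2F factors and a later one under the MuvB complex with MYBL2 and FOXM1, so they are widely read as markers of proliferation. The vaginal wall holds epithelium, stroma, smooth muscle and immune cells, any of which can divide. In bulk tissue such as this, fewer cells of a type and less RNA per cell cannot be told apart.

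The total count per library was 20992063 to 30695000, and the named genes took 15348880 to 23236339 of it. Smooth muscle, fibroblast and epithelial marker genes were detected in every group, though the keratins KRT14 and KRT18 had no row, and the summed smooth muscle markers ran from 9090 CPM in control 9 to 156000 CPM in control 2 (CPM, the count scaled to a common effective library size). Control 2 had the smallest scaling factor, 0.5917, and its columnar epithelium markers (11 of 15 present) summed to 18 CPM, against 268 to 2070 CPM in the other libraries. It was the lowest library for 4 of 12 S phase members (CCNE2, MYBL2, MCM5 and MCM7) and for 1 of 24 mitotic members (CDK1). This was not particular to control 2. Sham 14 was lowest for 6 S phase and 8 mitotic members, and control 29 for 1 and 7. The share of all genes lowest in each library was not counted. PLATE 1 and control 24 stood apart in the cell cycle genes themselves, as described next, so results that rest on PLATE 1 are given with and without it.

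The highest values of nearly all cell cycle genes lay in the same pair of libraries, 1 from a PLATE animal and 1 from an unoperated control. PLATE 1 was the highest library in 35 of 36 tested members, all 12 S phase genes and 23 of 24 mitotic genes, whereas it was highest in 22.7% of all genes tested. The exception was TTK, a spindle checkpoint kinase, which was highest in control 24. Among the other 15 libraries, control 24, from an unoperated animal, was highest in 34 of 36 members, against 11% of all genes. The exceptions there were CDK1, the kinase that drives entry into mitosis, highest in control 25, and ANLN, a scaffold of the cytokinetic ring, highest in sham 11. This ranking is a description of the libraries and carries no test.

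**Figure D1:**
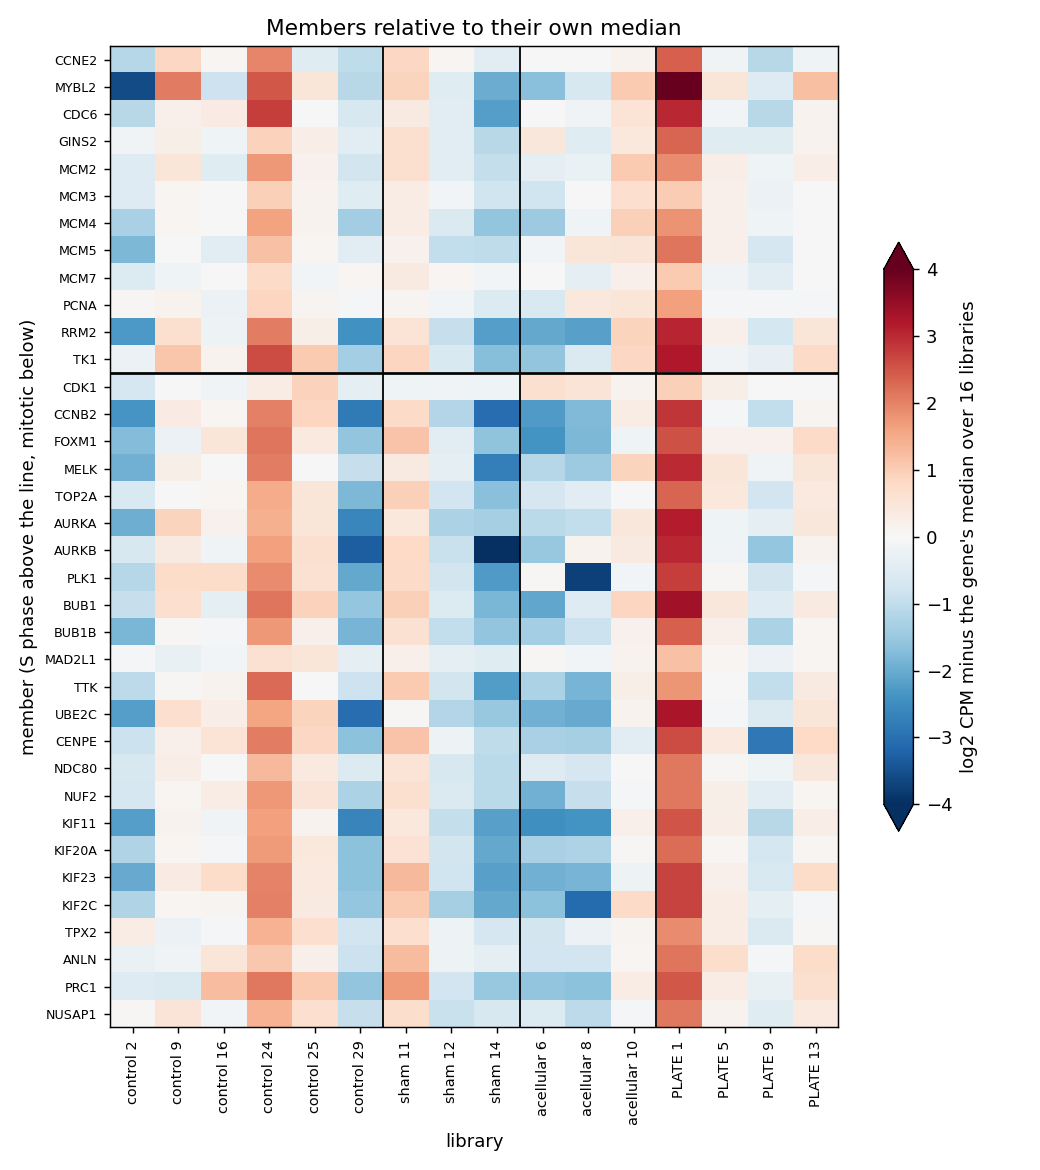
Level of each tested member (1 line per gene, S phase genes above mitotic genes) in each of the 16 libraries, as the difference in log2 CPM from that gene's median, with the colour scale ending at the arrowed limits. PLATE 1 and control 24 form the deepest red columns, meaning levels above the median, across nearly all genes.

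The size of the excess in PLATE 1 was large for most members. Relative to the median of the 14 libraries other than PLATE 1 and control 24, PLATE 1 was 2.05 to 46.4-fold higher in S phase genes, with a median of 5.23-fold, and 1.96 to 14.2-fold higher in mitotic genes, with a median of 7.2-fold. Control 24 exceeded the same 14 libraries by 1.76 to 8.69-fold in S phase genes and by 1.25 to 6.23-fold in mitotic genes, with medians of 3.57 and 4.11-fold. The smallest excess in PLATE 1 was that of CDK1 and the greatest that of MYBL2, a transcription factor of the MuvB complex.

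Averaged over the 12 S phase genes, the level was 5.34 log2 CPM in PLATE 1 and 4.63 in control 24, and the other 14 libraries lay between 1.76 in sham 14 and 3.62 in acellular 10. Averaged over the 24 mitotic genes, it was 5.01 in PLATE 1 and 4.25 in control 24, with the others between 0.94 in sham 14 and 3.34 in sham 11. All 4 groups overlapped in both means. The pooled standard deviation of these means within groups was 1 for S phase genes and 1.16 for mitotic genes.

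**Figure D2:**
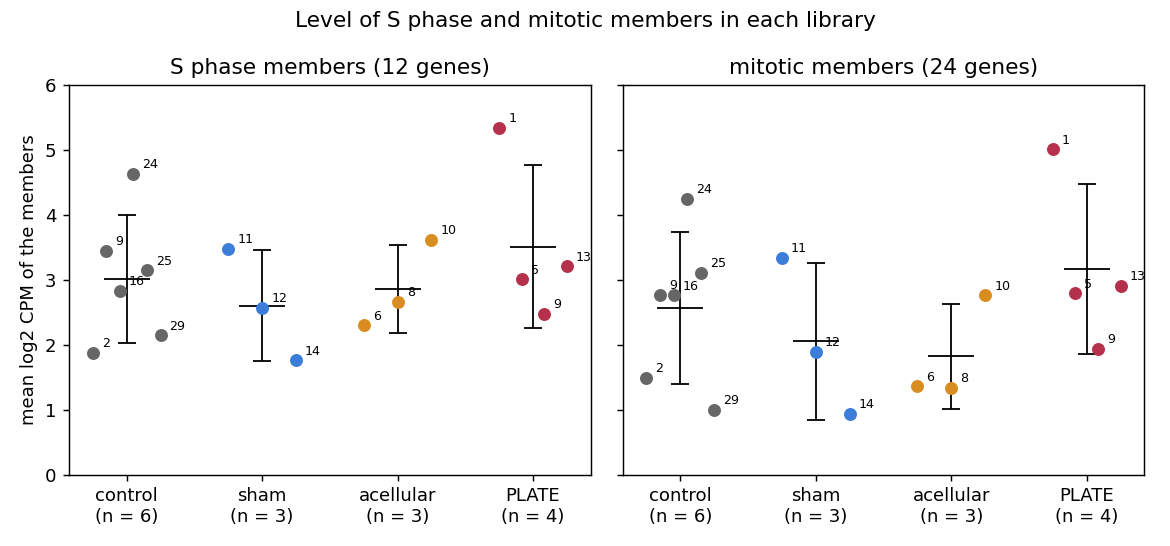
Mean level (log2 CPM) of the 12 S phase genes and of the 24 mitotic genes in each library by group, points being libraries and bars the group mean ± SD. PLATE 1 (5.34 and 5.01) and control 24 (4.63 and 4.25) lie above all others, and the 4 groups overlap.

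The members also varied more within groups than other genes did. Their median within-group standard deviation was 0.99 log2 CPM for S phase genes and 1.34 for mitotic genes, against 0.43 for all genes tested. Without PLATE 1 these values were 0.84, 1.25 and 0.39. The members were also lower in level, with a median mean CPM of 14.5 for S phase and 7.83 for mitotic genes, against 24.5 for all genes. Genes of equal level were not compared. CDK1, MAD2L1 and MCM7 varied least and MYBL2 most.

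In what follows, control values are given as the lowest, the median and the highest of the 6 libraries, sham values in the order 11, 12 and 14, acellular values in the order 6, 8 and 10, and PLATE values in the order 1, 5, 9 and 13, all in CPM. CPM does not correct for gene length, so levels are compared between libraries and not between genes.

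Among the G1/S regulators, CCNE2, a cyclin that opens S phase with CDK2, measured 0.45, 0.985 and 4.65 in control, 2.05, 1.2 and 0.782 in sham, 1.09, 1.14 and 1.23 in acellular and 6.21, 1, 0.471 and 0.984 in PLATE. MYBL2 measured 0, 1.06 and 6.51 in control, 2.14, 0.766 and 0.206 in sham, 0.274, 0.672 and 2.37 in acellular and 34.8, 1.57, 0.732 and 2.66 in PLATE. The other 3 PLATE libraries lay within the control range for both genes.

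Of the origin licensing and helicase genes, CDC6, which loads the helicase, measured 0.63, 1.61 and 10.7 in control, 1.91, 1.05 and 0.247 in sham, 1.46, 1.34 and 2.22 in acellular and 12.7, 1.35, 0.628 and 1.62 in PLATE. MCM2, a helicase subunit, measured 7.52, 11.5 and 41.5 in control, 19.7, 9.19 and 6.38 in sham, 9.71, 10.4 and 26 in acellular and 46.6, 14.9, 11 and 15.2 in PLATE. MCM5, another subunit of the ring, measured 3.06, 9.5 and 24.5 in control, 12.2, 5.41 and 5.31 in sham, 10.2, 15.2 and 15.5 in acellular and 48.6, 12.5, 6.8 and 10.8 in PLATE. In all 3 genes PLATE 1 was followed by control 24, and the groups overlapped. MCM7 had a narrower range, with 33.7, 47.3 and 83.4 in control, 63, 52.7 and 45.3 in sham, 50.4, 38 and 57.1 in acellular and 101.7, 45.2, 37.1 and 50.5 in PLATE. MCM3 ran from 22.9 to 82.4 CPM and MCM4 from 6.51 to 67.8 CPM over the 16 libraries, both lowest in sham 14 and highest in PLATE 1. GINS2, part of the active helicase, measured 1.98, 2.8 and 5.21 in control, 4.24, 1.96 and 1.19 in sham, 3.69, 1.88 and 3.6 in acellular and 13.9, 1.88, 1.88 and 2.95 in PLATE.

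For the clamp and nucleotide supply, PCNA, the sliding clamp of the replication polymerases, measured 56.5, 69.9 and 119 in control, 71.4, 61.4 and 45 in sham, 43.3, 88.4 and 92.3 in acellular and 205, 64, 64.8 and 62.7 in PLATE. The other 3 PLATE libraries were close to one another, at 63.8 ± 1.08 CPM (SD, n = 3). RRM2, the regulated subunit of ribonucleotide reductase, measured 1.88, 10.8 and 44.2 in control, 15.6, 5.55 and 2.22 in sham, 2.51, 2.28 and 19.8 in acellular and 88.2, 12.1, 6.54 and 15 in PLATE. TK1, which salvages thymidine, measured 0.813, 3.62 and 14.2 in control, 4.19, 1.44 and 0.618 in sham, 0.684, 1.48 and 4.09 in acellular and 21.5, 2.01, 1.78 and 3.89 in PLATE. Outside PLATE 1, the PLATE values of RRM2 and TK1 lay within the control range.

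**Figure D3:**
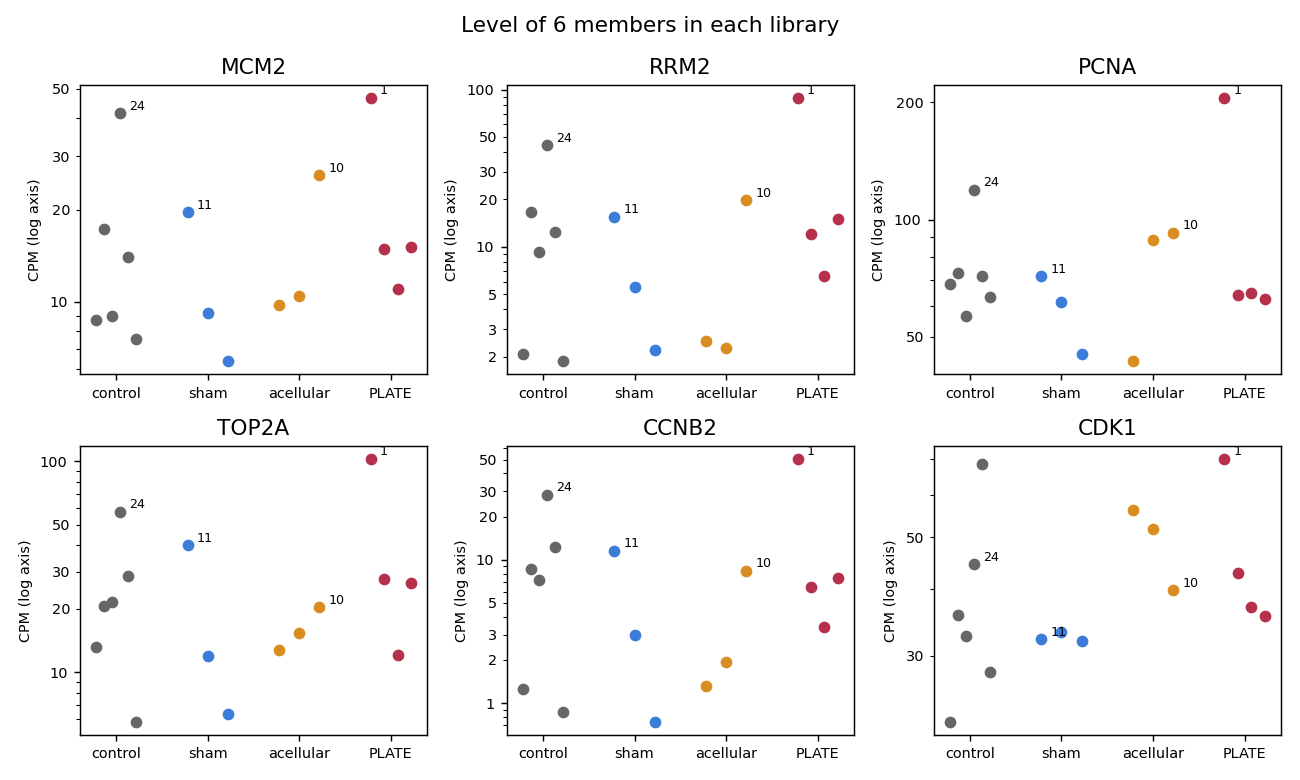
CPM (log axis) of MCM2, RRM2, PCNA, TOP2A, CCNB2 and CDK1 in each library by group, 1 point per library, with PLATE 1, control 24, sham 11 and acellular 10 marked by animal number. In 5 of the 6 panels PLATE 1 and control 24 are the 2 highest points, and CDK1 shows a narrower range and another order.

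Among the mitotic genes, CDK1 measured 22.6, 34.2 and 68.5 in control, 32.2, 33.2 and 32 in sham, 56.3, 51.9 and 39.8 in acellular and 70, 42.8, 36.9 and 35.6 in PLATE. All acellular and all PLATE values lay above all 3 sham values, which were within 32.5 ± 0.646 CPM (SD, n = 3). CCNB2, a cyclin partner of CDK1 named after its values were seen, measured 0.864, 7.94 and 28.2 in control, 11.5, 2.97 and 0.741 in sham, 1.32, 1.95 and 8.34 in acellular and 50.6, 6.46, 3.4 and 7.43 in PLATE. FOXM1, which drives transcription of G2 and mitotic genes, measured 0.63, 2.54 and 10.7 in control, 5.26, 1.68 and 0.7 in sham, 0.365, 0.605 and 2.07 in acellular and 14.2, 2.62, 2.62 and 3.98 in PLATE. All 4 PLATE values of FOXM1 lay above all 3 acellular values, while both groups overlapped control and sham. MELK, a kinase of proliferating cells, ran from 0.165 CPM in sham 14 to 13.7 CPM in PLATE 1.

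TOP2A, which untangles DNA before chromosome separation, measured 5.84, 21.1 and 57.8 in control, 40, 11.9 and 6.34 in sham, 12.8, 15.3 and 20.3 in acellular and 102.8, 27.6, 12.1 and 26.6 in PLATE. The group means were 24.6 ± 18 in control, 19.4 ± 18.1 in sham, 16.1 ± 3.84 in acellular and 42.3 ± 40.9 CPM in PLATE (SD, n = 6, 3, 3 and 4), and the PLATE mean was 22.1 ± 8.66 (SD, n = 3) without PLATE 1. The difference between group means was thus smaller than the spread within PLATE.

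Of the kinases, AURKA, which matures spindle poles, measured 0.813, 6.91 and 14.9 in control, 7.36, 2.2 and 2.14 in sham, 2.55, 2.69 and 7.55 in acellular and 49.1, 4.89, 4.29 and 7.48 in PLATE. AURKB, the kinase of the chromosomal passenger complex, measured 0.102, 2.06 and 6 in control, 3.35, 0.958 and 0 in sham, 0.593, 2.08 and 2.42 in acellular and 15.8, 1.7, 0.575 and 2.07 in PLATE. PLK1, the Polo kinase of mitotic entry and exit, measured 0.864, 6.29 and 14.8 in control, 6.75, 2.35 and 0.741 in sham, 4.06, 0.202 and 3.6 in acellular and 27.2, 4.06, 2.3 and 3.79 in PLATE. PLATE 1 was the highest library for each of these kinases and the other PLATE libraries overlapped all other groups.

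Of the checkpoint genes, BUB1 was highest in PLATE 1 and TTK in control 24. BUB1, a kinase of the spindle checkpoint, measured 0.966, 3.61 and 13.8 in control, 5.87, 2.01 and 0.782 in sham, 0.639, 2.08 and 5.52 in acellular and 31.4, 4.19, 2.09 and 3.84 in PLATE. TTK measured 1.26, 2.73 and 13.2 in control, 5.68, 1.58 and 0.494 in sham, 1.05, 0.672 and 3.16 in acellular and 9.44, 2.66, 1.31 and 3.44 in PLATE. BUB1B and MAD2L1, which hold the anaphase-promoting complex in check, ran from 1.83 to 36.5 and from 9.26 to 29.8 CPM. UBE2C, the ubiquitin-conjugating enzyme of that complex, measured 0.508, 6.9 and 14.9 in control, 5.03, 2.11 and 1.65 in sham, 1.23, 1.14 and 5.38 in acellular and 48.3, 4.8, 3.3 and 6.89 in PLATE.

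At the kinetochore, CENPE, a motor that carries chromosomes to the spindle equator, measured 1.22, 5.32 and 16.9 in control, 8.99, 3.45 and 1.94 in sham, 1.6, 1.55 and 2.96 in acellular and 24.8, 5.28, 0.471 and 7.08 in PLATE. NDC80, which binds microtubules, measured 4.86, 8.33 and 18.8 in control, 11.1, 4.88 and 3.58 in sham, 5.25, 4.77 and 7.74 in acellular and 33.2, 7.9, 6.7 and 10.5 in PLATE. Its partner NUF2 measured 1.98, 5.6 and 16.5 in control, 7.64, 3.21 and 2.26 in sham, 1.23, 2.55 and 4.64 in acellular and 21.3, 5.76, 3.56 and 5.17 in PLATE. Without PLATE 1, PLATE values of these 3 genes still overlapped acellular values.

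For the spindle and cytokinesis, KIF11, the motor that pushes spindle poles apart, measured 1.22, 8.25 and 25.6 in control, 11.1, 4.17 and 1.73 in sham, 1.41, 1.48 and 9.42 in acellular and 47, 9.87, 3.77 and 9.94 in PLATE. ANLN measured 4.22, 8.07 and 16.7 in control, 19, 6.7 and 6.01 in sham, 4.52, 4.57 and 8.29 in acellular and 35, 12.7, 7.32 and 13 in PLATE. Of ANLN, 3 of the 4 PLATE values lay above all acellular values. The remaining spindle genes, KIF20A, KIF23, KIF2C, TPX2, PRC1 and NUSAP1, were all highest in PLATE 1, with maxima from 20.4 CPM for KIF2C to 78.3 CPM for TPX2.

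No member passed an adjusted p of 0.05 in any of 7 comparisons between treatments (edgeR's quasi-likelihood test with Benjamini-Hochberg adjustment over 10942 genes), with all 16 libraries or without PLATE 1, and the share of all genes called was also 0% throughout. DESeq2 called 0 members in 6 comparisons and gave no adjusted p for any member in acellular against control. Comparisons that share a group are not independent of each other. The accounts below therefore give sizes and counts.

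PLATE against control asks whether the tissue around the particle graft differed from native vagina. All 12 S phase genes and all 24 mitotic genes had a positive log2 fold change, with medians of 0.48 and 0.75 against -0.01 over all genes. Without PLATE 1 the medians were -0.31 and -0.42, and 0 of 12 and 1 of 24 genes were higher in PLATE, so the sign of both medians rested on that library. Without control 24 in place of PLATE 1, the medians were 1.07 and 1.2. By unadjusted p under 0.05, 0 members were reached, against 4.39% of all genes, and DESeq2 also reached 0. ANLN had the smallest p of the members (log2 fold change 0.90 ± 0.466 SE, adjusted p = 0.998, and 0.27 without PLATE 1). MYBL2 was at 2.07 ± 1.15 SE and AURKA at 1.25 ± 0.803 SE, and both changed sign without PLATE 1, to -0.51 and -0.31.

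PLATE against acellular compares the graft types at the same distance. The median log2 fold change was 0.68 for S phase genes, with 12 of 12 higher in PLATE, and 1.71 for mitotic genes, with 23 of 24 higher, against 0.02 over all genes. At unadjusted p under 0.05 by edgeR, 7 of 36 members were higher in PLATE (ANLN, FOXM1, UBE2C, KIF23, NUSAP1, NDC80 and NUF2, all mitotic). By the same test, 4.71% of all genes were under that threshold in either direction. DESeq2 reached 14 members, but its share over all genes was not counted, so that number has no background. ANLN was at 1.55 ± 0.586 SE, FOXM1 at 2.51 ± 1.06 SE and UBE2C at 2.60 ± 1.15 SE (adjusted p = 0.875 for each). Without PLATE 1 these were 0.92, 1.59 and 0.94, and 0 members remained under an unadjusted p of 0.05.

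S phase and mitotic genes parted in that comparison once PLATE 1 was left out. The S phase median was then -0.15, with 3 of 12 genes higher in PLATE, and the mitotic median was 0.53, with 21 of 24 higher. By role, 0 of 7 origin licensing and helicase genes and 8 of 8 spindle, motor and cytokinesis genes were higher in PLATE, with medians of -0.17 and 0.74. The S phase side leaned on acellular 10. Its S phase mean was 3.62 log2 CPM, against 2.3 and 2.66 in acellular 6 and 8. PLATE 5, 9 and 13 were at 3.01, 2.48 and 3.21, so the groups overlapped. No fit left out both PLATE 1 and acellular 10. FOXM1 was the 1 member whose PLATE values all lay above the acellular values, against 3.27% of all genes, a share near that background. The difference between the S phase and mitotic means within a library was 0.94, 1.31 and 0.86 log2 units in acellular 6, 8 and 10, and 0.33, 0.23, 0.54 and 0.3 in PLATE 1, 5, 9 and 13. It ran from 0.04 to 1.15 in control and from 0.14 to 0.81 in sham, so the PLATE and acellular values did not overlap each other, while all PLATE values and those of acellular 6 and 10 fell within the control range. This difference was not tested. Summed markers also separated PLATE from acellular without overlap for 4 of the cell type lists, and overlapped for all the others. Smooth muscle markers (6 of 10 present) were at 29000 to 47600 CPM in PLATE and 13200 to 17900 CPM in acellular, and fibroblast markers (13 of 13) at 26700 to 50800 and 13000 to 21000 CPM. Skeletal muscle markers (8 of 12) were at 3400 to 5870 and 1060 to 2060 CPM. By mean log2(CPM + 0.1) the skeletal muscle list did overlap, at 1.57 in PLATE 9 and 1.81 in acellular 6. Germinal centre B cell markers (9 of 9) reached 175 CPM in PLATE and lay between 81.7 and 89.6 CPM in acellular, below every PLATE library. In control they ran from 77.9 CPM in control 29 to 237 CPM in control 2, the latter above every PLATE library. By mean log2(CPM + 0.1) the order differed. PLATE 1 was then the highest library for this list, at 2.25, followed by control 9 at 1.15, while control 2 was at 0.19. The part of these lists in the result was not tested.

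**Figure D4:**
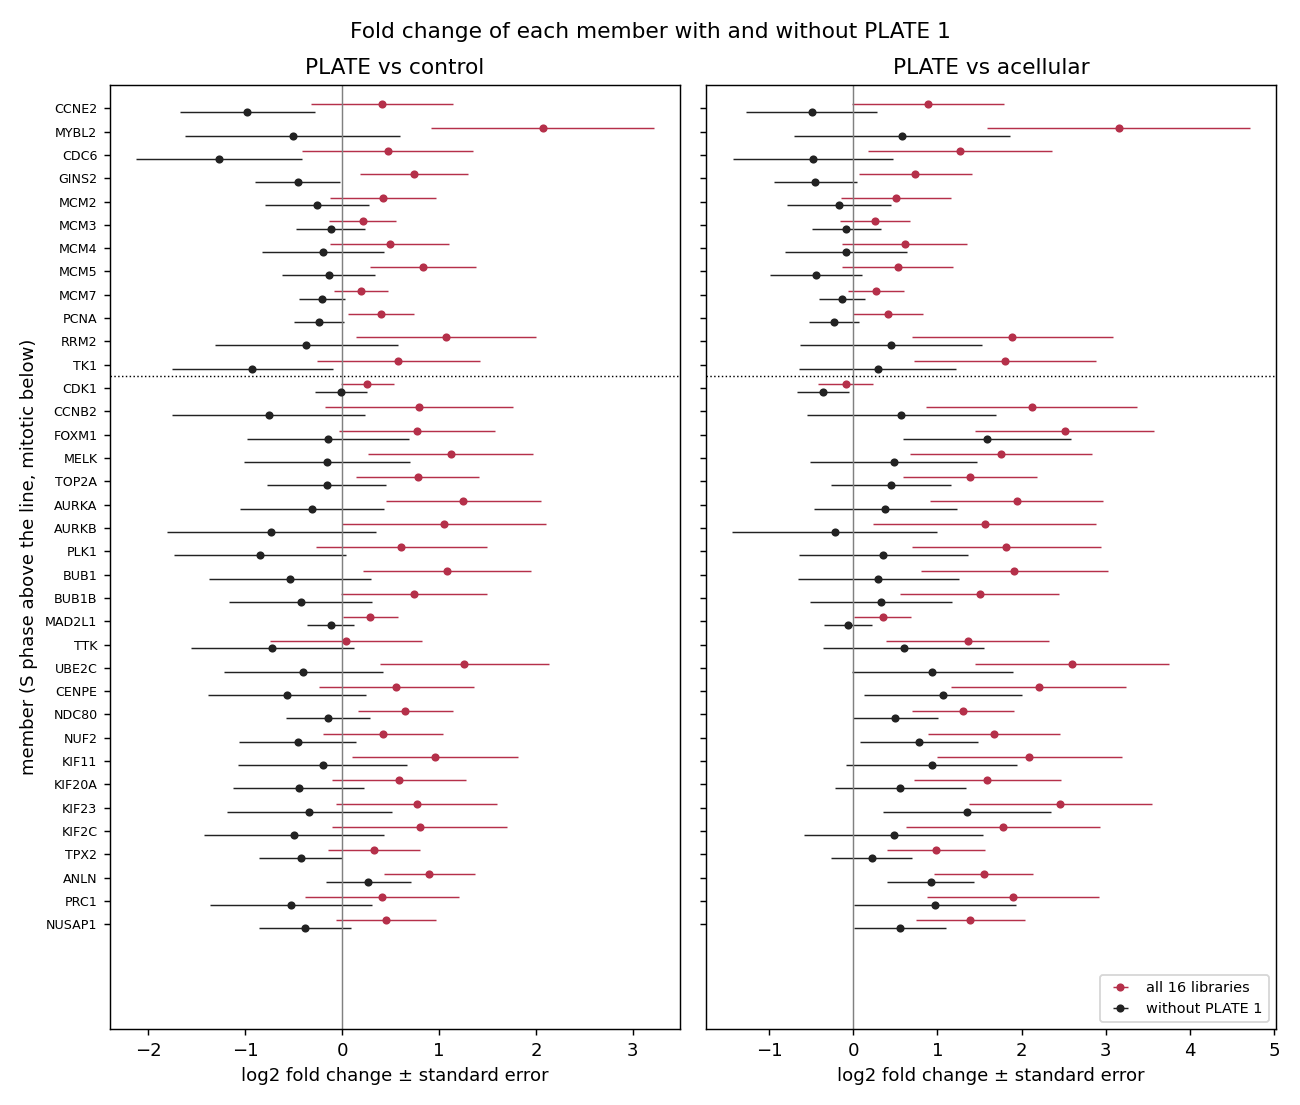
Log2 fold change (± SE) of each tested member in PLATE against control and in PLATE against acellular, with all 16 libraries and without PLATE 1. Leaving out PLATE 1 moves the medians from 0.48 to -0.31 (S phase) and from 0.75 to -0.42 (mitotic) against control, and from 0.68 to -0.15 and from 1.71 to 0.53 against acellular.

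PLATE against sham gave medians of 1.1 for S phase and 1.21 for mitotic genes, with all members higher in PLATE. Without PLATE 1 the medians were 0.2 and 0.16, with 9 of 12 and 20 of 24 higher. UBE2C was the 1 member under an unadjusted p of 0.05 by edgeR (2.43 ± 1.14 SE, adjusted p = 0.657, and 0.77 without PLATE 1), against 7.5% of all genes. DESeq2 reached 5 members, and its share over all genes was not counted. MYBL2 was at 3.25 ± 1.57 SE and AURKA at 2.07 ± 1.03 SE, or 0.67 and 0.51 without PLATE 1. CDK1 was the 1 member whose PLATE values all exceeded the sham values (0.51 ± 0.328 SE, adjusted p = 0.698, and 0.24 without PLATE 1), against 7.91% of all genes.

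Acellular against control gave an S phase median of -0.11 and a mitotic median of -0.96, with 1 of 12 and 1 of 24 genes higher in acellular. At unadjusted p under 0.05, 0 members were reached, against 6% of all genes, and DESeq2 also reached 0. FOXM1 (-1.74 ± 0.987 SE, adjusted p = 0.859), NUF2 (-1.24 ± 0.73 SE) and CENPE (-1.64 ± 0.968 SE) had the smallest p. Without control 24 the medians were 0.19 and -0.4, and without acellular 10 they were -0.62 and -1.71.

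Sham against control gave medians of -0.5 for S phase and -0.6 for mitotic genes, with 1 of 12 and 1 of 24 higher in sham. At unadjusted p under 0.05, 0 members were reached by edgeR and by DESeq2, against 2.98% of all genes by edgeR. CDC6 (-1.45 ± 1.05 SE, adjusted p = 0.963), TK1 and UBE2C had the smallest p. Without control 24 the medians were -0.11 and -0.1, and without sham 11 they were -1.05 and -1.58.

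Acellular against sham gave medians of 0.27 for S phase and -0.32 for mitotic genes, with 10 of 12 and 5 of 24 higher in acellular. CDK1 (0.60 ± 0.348 SE, adjusted p = 0.902), ANLN (-0.86 ± 0.604 SE, adjusted p = 0.902) and FOXM1 (-1.32 ± 1.07 SE, adjusted p = 0.909) had the smallest p. CDK1 was the 1 member whose acellular values all exceeded the sham values, against 7.82% of all genes. At unadjusted p under 0.05, 0 members were reached, against 4.87% of all genes, and DESeq2 also reached 0. Without sham 11 the mitotic median was 0.54. The S phase median was -0.24 without acellular 10 and -0.02 without sham 14.

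All operated groups, weighted equally, against control gave medians of -0.06 for S phase and -0.28 for mitotic genes, with 4 of 12 and 2 of 24 genes higher after surgery. At unadjusted p under 0.05, 0 members were reached, against 3.88% of all genes, and DESeq2 also reached 0. TTK (-0.64 ± 0.622 SE, adjusted p = 1), NUF2 (-0.48) and TK1 (-0.62) had the smallest p. Without PLATE 1 the medians were -0.3 and -0.69, and without control 24 they were 0.48 and 0.2. The S phase median was also at or above 0 when any one of sham 14, acellular 6, PLATE 9 or PLATE 13 was left out.

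Further genes of the cell cycle were read from lists that hold none of the members. Of 61 other S phase genes 47 were tested, of 85 other G2 and mitosis genes 60, of 39 genes of G1 control and cell cycle exit 28, and all 6 subunits of the DREAM and MuvB complexes. None was called in any comparison by edgeR or DESeq2. In acellular against control, where DESeq2 gave no member an adjusted p, it was not counted how many genes of these lists had one. PLATE 1 was the highest library in 28 of the 47 other S phase genes (59.6%) and in 54 of the 60 other G2 and mitosis genes (90%), but in 8 of the 28 G1 genes (28.6%) and in 0 of the 6 complex subunits. In PLATE against control the medians were 0.18, 0.5, -0.06 and -0.11, and without PLATE 1 those of the 2 lists of S phase and G2 genes were -0.17 and -0.32. PLATE 1 was thus also highest in most replication and division genes outside the members, with no test of the difference between the lists.

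**Figure D5:**
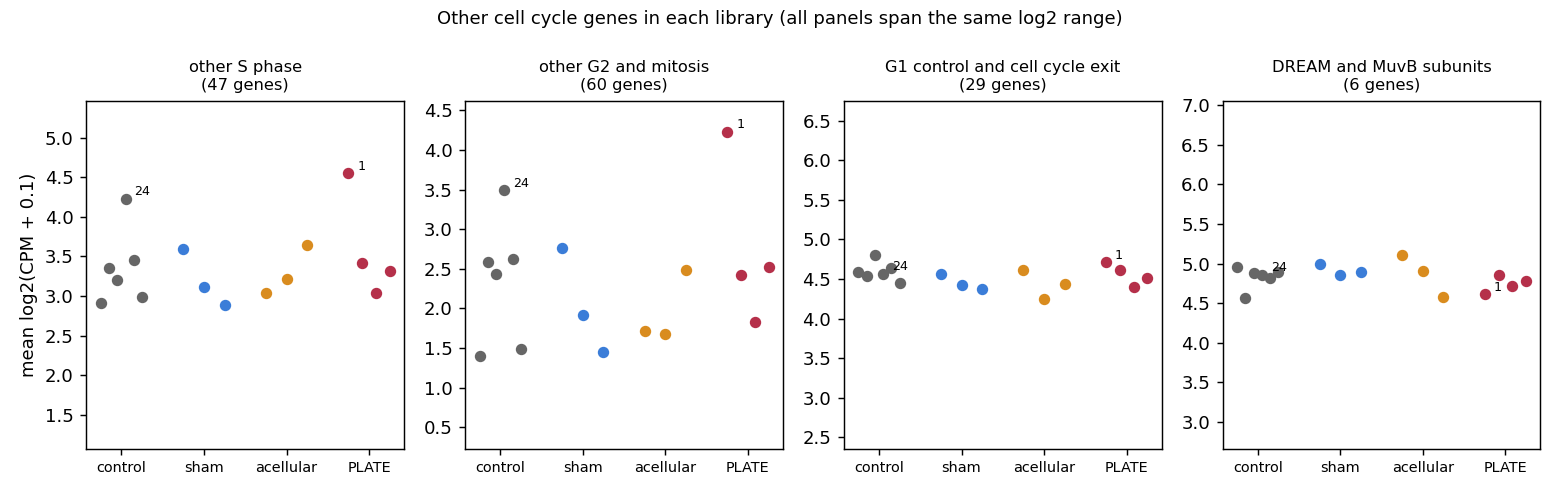
Mean log2(CPM + 0.1) of each wider cell cycle list in each library by group, 1 point per library, with PLATE 1 and control 24 marked by animal number and all panels spanning an equal log2 range. PLATE 1 and control 24 are highest in other S phase genes (4.55 and 4.23) and in other G2 and mitosis genes (4.23 and 3.49), while the G1 control and exit genes, drawn for all 29 with a row, lie between 4.25 and 4.81 in all libraries.

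No gene that holds or releases cells in G1 passed the test. CCND2, a D-type cyclin, had a log2 fold change of -0.10 ± 0.293 SE in PLATE against control (adjusted p = 0.998). CDKN1B, which inhibits CDK2, was at 0.08 ± 0.232 SE, and RB1, the retinoblastoma protein that restrains E2F factors, at -0.02 ± 0.154 SE in the same comparison. BTG2, an antiproliferative gene, had a lower mean after surgery (-2.09 ± 0.713 SE, unadjusted p = 0.0102, adjusted p = 1). It ran from 14.6 CPM in control 24 to 725 CPM in control 16, so its controls alone spanned every operated library.

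Of the wider lists, E2F2, an E2F factor of S phase entry, measured 9.9, 1.14, 1.41 and 1.23 CPM in PLATE and 0.182, 0.47 and 0.937 in acellular. The groups did not overlap, as in 3.27% of all genes with PLATE higher. E2F2 was named for its small p, so this separation adds no support, and its acellular levels were low. The log2 fold change was 2.67 ± 0.943 SE (unadjusted p = 0.0126, adjusted p = 0.875), or 1.24 without PLATE 1. TIMELESS was at 0.93 ± 0.41 SE in PLATE against control, or 0.11 without PLATE 1, and LMNB1 at 1.99 ± 0.773 SE in PLATE against sham, or 0.70 without PLATE 1. LIN52 (0.52 ± 0.18 SE) and RPA1 (0.40 ± 0.147 SE, both in acellular against control), NSL1 (0.55 ± 0.246 SE in acellular against sham) and MNAT1 (-0.34 ± 0.149 SE in sham against control) were also named by rule, and none passed adjustment.

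Markers of other cell types also differed in PLATE 1. Its summed B and plasma cell markers reached 36800 CPM (13 of 14 markers present), while the control libraries ranged from 301 to 11100, the sham libraries from 1760 to 2480, the acellular libraries from 2080 to 5520 and the other PLATE libraries from 3850 to 6810. Macrophage markers summed to 9770 CPM in PLATE 1 (14 of 14), while control ranged from 397 to 2030, sham from 334 to 967, acellular from 456 to 1700 and the other PLATE libraries from 577 to 1060. Neutrophil markers summed to 8010 CPM (8 of 11), while control ranged from 176 to 1220, sham from 53.1 to 121, acellular from 48 to 560 and the other PLATE libraries from 296 to 553. Control 24 had 2030 CPM of macrophage markers, the most after PLATE 1. It had 960 CPM of B and plasma cell markers and 15.4 CPM of T and natural killer cell markers (10 of 18 present). Control 9, with 11100 CPM of B and plasma cell markers, ranked 5 of 16 libraries in the S phase mean and 7 in the mitotic mean. Among the 15 libraries other than PLATE 1 it was highest in 0 of 36 members, against 15.1% of all genes. Control 24 held 34 of those 36 places, which left few for any other library. Columnar epithelium markers (11 of 15) summed to 268 CPM in PLATE 1 and 417 CPM in control 24, with only control 2 lower, at 18 CPM. CD79A of B cells, CD3E of T cells and CXCR2 of neutrophils had no row, and the part of any cell type in the cell cycle values was not tested.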

How the data were processed

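Whole-number counts per gene symbol for 16 libraries were deposited by the authors. Per the submitters' processing notes, HISAT2 2.2.1, featureCounts and FastQC were used, and per the labels' protocols the library kit was stranded. The genome build, annotation and strand setting are not given in the sources used here, so overlapping genes cannot be told apart. Columns were matched to samples by their trailing index, since the middle number of the descriptions (101) differed from theirs. A pooled line of unnamed genes (22.9 to 28.5% of counts) was left out.

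Counts were filtered with filterByExpr, scaled by TMM and fitted in edgeR 4.0.16 (R 4.3.3) with 1 mean per group and 12 residual degrees of freedom, with p-values Benjamini-Hochberg adjusted over 10942 genes. Log2 CPM used a prior count of 2. Alternatives were DESeq2 1.42.0, other scalings and filters, and leaving out libraries. The scripts were tested on simulated data. Members and lists were chosen with earlier results of these data known. Named genes were a fixed set of members, the 3 members with the smallest p per comparison, CCND2, CDKN1B and RB1, and the 2 genes of the wider lists with the smallest p per comparison. A gene that this rule names is not reported here.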

Additional observations from a re-analysis of the deposited data

Results flagged for a closer look

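Within the control group and the PLATE group, each tested member and the S phase and mitotic means were checked for 1 library lying far from the others on the log2 scale, and 4 of 76 such checks found one. Chance alone gives about 1 in 20. The control value that stood apart was that of control 24 for CDC6 (10.7 CPM), for PCNA (119 CPM) and for TTK (13.2 CPM). In the PLATE group, PLATE 1 stood apart for PCNA (205 CPM). Each of these was the highest value of its group.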

How the results depend on the processing

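The number of members called stayed at 0 under every alternative that gave adjusted p-values, and DESeq2 gave none for members in acellular against control. DESeq2 called 17 of all genes in acellular against control, 1 in PLATE against acellular, 14 in PLATE against sham, 1 in acellular against sham and 1 in operated against control, where edgeR called 0. Leaving out 1 library at a time, the mitotic median ranged from -0.42 to 1.2 in PLATE against control and from 0.53 to 2.26 in PLATE against acellular, and without PLATE 1, control 2 and control 9 together these medians were -0.64 and 0.51. In PLATE against control, leaving out single libraries moved MYBL2 from -0.51 to 2.69 and AURKA from -0.31 to 1.63, and without the same 3 libraries they were -0.47 and -0.42. In operated against control, TTK ranged from -1.07 to 0.22, NUF2 from -0.77 to 0.03 and TK1 from -1.12 to 0.08, each positive without control 24. The cause was not tested. Groups of 3 to 6 libraries and low counts of several members limit the precision. No paired analysis was possible because the groups share fewer than 2 animal numbers, number 9 alone occurring in control and in PLATE.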
